A study of Mus musculus with 2 samples.

Results

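The interleukin 1 family and the interleukin 6 family were described by 10 genes, of 32285 genes counted, in mouse ovarian tumours: Il1a, Il1b, Il1rn, Il1r1, Il1r2, Il33, Il18, Il6, Osm and Lif. The members were picked out by symbol, with no threshold on any value. Female C57BL/6 mice of 6 to 8 weeks whose peritoneum had been abraded received an intraperitoneal injection of syngeneic ovarian cancer cells (p53-/-, myc, Hras) and then, from the next day, either control IgG or an Activin A neutralizing antibody every day. Tumour tissue from the abraded wall was pooled over the mice of a group and made into 1 droplet library of single-cell transcripts, so each group was 1 library. Per the series text, 7 mice were given control IgG and 8 the antibody, over 10 days. The paper gives other numbers of mice and days for its single-cell experiment, and which experiment the libraries come from was not settled. The mice of both groups carried the same tumour cells and the same abrasion, and no group without tumour cells or without abrasion was analysed here. The effect of the antibody cannot be told apart from any other difference between the 2 libraries.

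Interleukin 1 alpha and beta bind the signalling receptor encoded by Il1r1, which activates NF-kB through the adaptor MyD88, while the antagonist encoded by Il1rn occupies the same receptor without signalling and the receptor encoded by Il1r2 is a decoy that binds ligand and sends no signal. Interleukin 33 and interleukin 18 are relatives that use the receptors encoded by Il1rl1 and Il18r1. Interleukin 6, oncostatin M and leukaemia inhibitory factor share the signalling chain gp130, encoded by Il6st, and act through STAT3, and in inflamed or wounded peritoneum myeloid cells and fibroblasts are known sources of these cytokines.

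The 10 genes lie on 6 chromosomes of GRCm38, and 3 pairs of them are neighbours. Il1r2 (chr1:40074079-40125231, plus strand) and Il1r1 (chr1:40225080-40317257, plus strand) are 99848 bases apart. Il1a (chr2:129299610-129309972, minus strand) and Il1b (chr2:129364570-129371139, minus strand) are 54597 bases apart. Osm (chr11:4236420-4241026, plus strand) and Lif (chr11:4257557-4272514, plus strand) are 16530 bases apart. The remaining genes are Il1rn (chr2:24336853-24351494, plus strand), Il6 (chr5:30013114-30019981, plus strand), Il18 (chr9:50554827-50581840, plus strand) and Il33 (chr19:29925114-29960718, plus strand). Il1b overlaps an annotated antisense gene, Il1bos, Il1a overlaps Gm14023 and Il18 overlaps Bco2 and Tex12, all on the other strand. Il1r2 overlaps Gm16894 on the other strand and Gm37347 on its own, and Il1r1 overlaps Gm38070 on its own. How strand was used in counting is not given in the sources used here.

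The bases just before the start sites of Il6, Il1rn and Il1b are shown because these are 3 cytokine or antagonist genes whose levels in myeloid cells were higher in the antibody library. They are from RefSeq (GRCm38.p6), 5′ to 3′ on the gene's own strand, at chr5:30012864-30013113 (plus strand), chr2:24336610-24336852 (plus strand) and chr2:129371140-129371389 (minus strand). Capitals mark matches, on either strand, to 4 short motifs bound by factors of inflammatory signalling.
Il6: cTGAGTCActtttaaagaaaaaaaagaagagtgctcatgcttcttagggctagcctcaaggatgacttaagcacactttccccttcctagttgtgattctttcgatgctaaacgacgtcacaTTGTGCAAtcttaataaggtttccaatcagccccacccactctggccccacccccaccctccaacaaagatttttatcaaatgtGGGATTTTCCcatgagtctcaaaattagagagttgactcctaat
Il1rn: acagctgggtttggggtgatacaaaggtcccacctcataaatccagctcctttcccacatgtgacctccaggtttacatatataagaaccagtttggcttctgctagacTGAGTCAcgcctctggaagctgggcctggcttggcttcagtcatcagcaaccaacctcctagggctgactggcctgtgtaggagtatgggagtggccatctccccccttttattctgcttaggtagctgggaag
Il1b: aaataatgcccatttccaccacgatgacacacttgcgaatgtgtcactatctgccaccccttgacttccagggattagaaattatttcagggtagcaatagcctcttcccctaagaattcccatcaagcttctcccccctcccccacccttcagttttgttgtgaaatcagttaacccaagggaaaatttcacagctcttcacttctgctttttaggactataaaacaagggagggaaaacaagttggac

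The motifs searched were TGANTCA (AP-1), TTCNNNGAA (STAT), GGGAN followed directly by TTTCC (NF-kB) and TTGCNNAA (C/EBP), and their letters were chosen with these sequences in view. Among 32851 RefSeq windows of 250 bases before a start site, 6.75% held the AP-1 motif, 7.02% the STAT motif, 0.356% the NF-kB motif and 9.56% the C/EBP motif. The Il6 window held 3 matches that did not overlap: TGAGTCA beginning 249 bases before the start, TTGTGCAA beginning 128 bases before it and GGGATTTTCC beginning 44 bases before it. In the Il1rn window there was 1 match, TGAGTCA, beginning 134 bases before the start of the annotated gene. The Il1b window held none of these letters. Matches were not particular to genes higher with the antibody. The windows of Il1a and Lif held TGACTCA and that of Il1r1 held TTGCTGAA, and the myeloid ratios of these genes had intervals that included 0. Before start sites inside the annotated gene, Il1r2 had TTCAAGGAA and Il33 had TTGCATAA. Whether the motifs bear on the levels was not tested.

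Cells with 1000 to 8500 genes, 1000 to 100000 transcript molecules (UMIs) and at most 10% mitochondrial UMIs were kept, which left 8770 cells of the control IgG library (median 5719 UMIs per cell) and 6386 of the antibody library (median 4660), with 19 barcodes found among the kept cells of both. A cell was given to a class when at least 3 of 5 markers of a type of that class, and of no other class, were on. The myeloid class held 1919 cells with control IgG and 789 with the antibody, the stromal class 231 and 248, the cancer-like class 332 and 352, and the lymphoid class 5325 and 4321. Levels are the UMIs of a gene in 1000000 UMIs of the summed cells of a class and library (CPM, counts per 1000000), with exact Poisson 95% intervals. Those intervals, and the intervals of log2 ratios, cover counting error only, because there was 1 library per group and no test between the groups can be made. Intervals of shares of cells (exact Clopper-Pearson) take cells as independent and likewise hold no spread between mice or libraries.

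The members fell into a myeloid set, a stromal set and a pair of genes with most UMIs in cancer-like cells. Over both libraries together Il1a (97.5%), Il1b (95.7%), Il1rn (76.6%), Osm (88.7%), Il1r2 (63.0%) and Il18 (63.1%) had most of their gated UMIs in myeloid cells. Il1r1 had 76.0% and Il6 62.8% of their gated UMIs in stromal cells, and Il33 73.3% and Lif 64.7% in cancer-like cells, which held more UMIs per cell than any other class. By CPM, Il33 was higher in stromal cells (317 CPM, 305 to 330) than in cancer-like cells (193 CPM, 189 to 198). Ligand and receptor of interleukin 1 were thus counted mainly in different classes, Il1b in myeloid cells at 593 CPM (582 to 603) and Il1r1 in stromal cells at 494 CPM (479 to 509), against 4.76 CPM (3.86 to 5.81) for Il1r1 in myeloid cells. By level, Il1b in myeloid cells was 51.4-fold above stromal cells, the next class, and Il1r1 in stromal cells 18.8-fold above cancer-like cells. Neighbours in the order could not be separated at this depth for Il18 in myeloid and stromal cells (29.0 and 27.0 CPM; log2 difference 0.10, interval -0.13 to 0.33) and for Lif in cancer-like and stromal cells (4.37 and 3.10 CPM; log2 difference 0.49, -0.12 to 1.16).

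**Figure D1:**
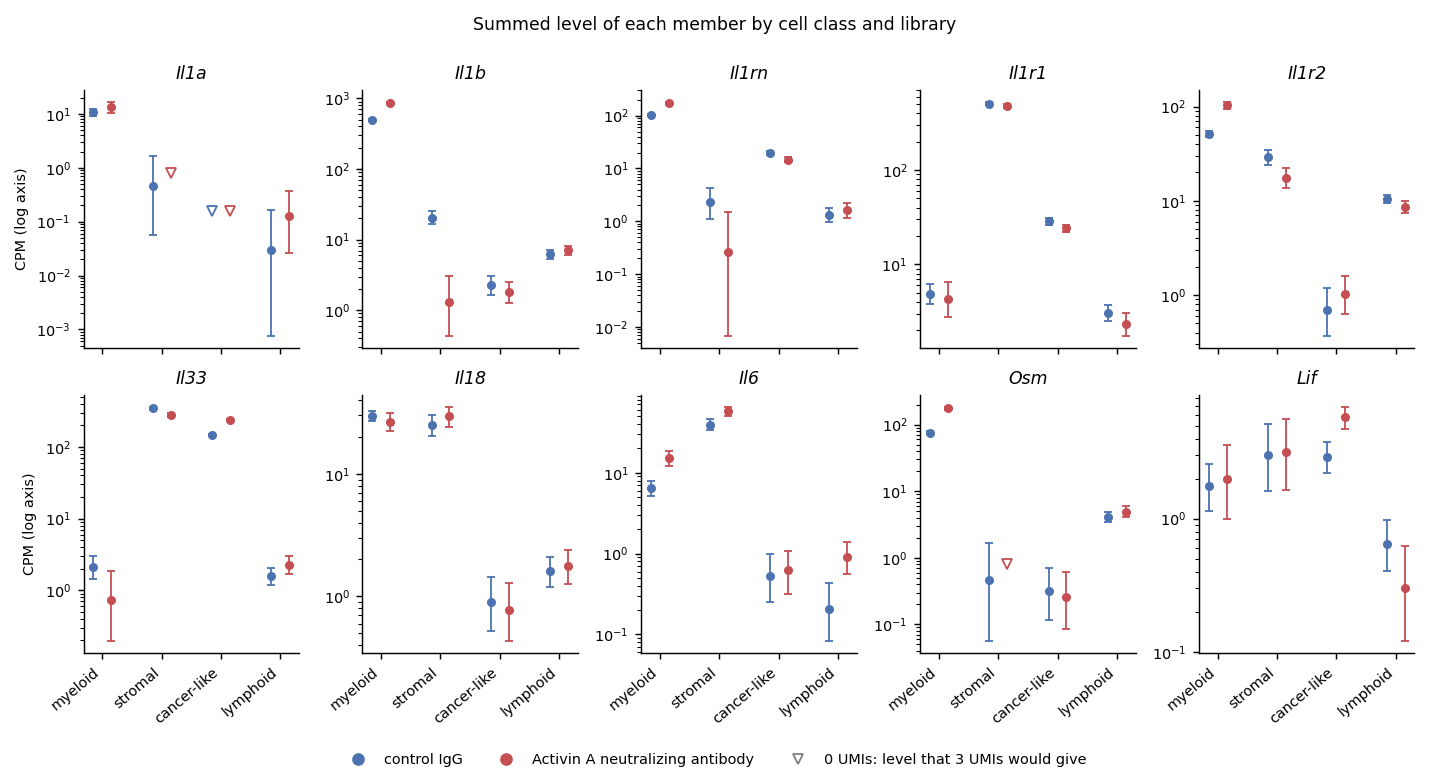
CPM of each of the 10 genes (log axis) in the 4 cell classes, with control IgG in blue and the antibody in red; points are sums over all cells of a class in 1 library, bars exact Poisson 95% intervals, and open triangles classes with 0 UMIs drawn at the level 3 UMIs would give. Il1b in myeloid cells stands at 491 CPM with control IgG and 865 CPM with the antibody, while Il1r1 in stromal cells stands at 506 and 480 CPM.

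Myeloid cells had higher levels of the decoy receptor gene Il1r2, of Il6 and of Osm in the antibody library by at least 2-fold, and of Il1b and the antagonist gene Il1rn by less. All 10 members had at least 20 UMIs over both libraries in this class, 3 of them were at least 2-fold higher with the antibody and 1, Il33, was at least 2-fold lower. Of 12651 genes with at least 20 UMIs, 7.25% were at least 2-fold different in either direction and 4.55% at least 2-fold higher. The median log2 ratio over the members was 0.53, and over all these genes 0.05.

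Il1b, the main secreted interleukin 1 of monocytes and macrophages, had 7285 UMIs in the control IgG library and 4787 in the antibody library, which were 491 CPM (480 to 502) and 865 CPM (841 to 890). The intervals did not overlap, and the log2 ratio of the antibody to control IgG was 0.82 (0.77 to 0.87). With every cell thinned to 2000 UMIs, 33.8% of myeloid cells (31.7 to 36.0, exact Clopper-Pearson) had an Il1b UMI with control IgG and 45.5% (41.9 to 49.1) with the antibody, against 50.3% and 58.9% before thinning at medians of 7179 and 6274 UMIs per cell. In lymphoid cells, a class not known for Il1b, 0.766% and 0.574% of thinned cells had one, and 1.60% and 1.27% before thinning at medians of 4720 and 4187 UMIs. Cells under 2000 UMIs (35 and 17 myeloid, 105 and 137 lymphoid) were left out of the thinned shares.

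Il1rn, which encodes the secreted interleukin 1 receptor antagonist, was at 101 CPM (96.4 to 107) with control IgG and 171 CPM (160 to 182) with the antibody (log2 ratio 0.76, 0.64 to 0.87). Antagonist and ligand were thus both higher in the antibody library, and their intervals of the ratio overlapped. Il1r2 was at 51.1 CPM (47.5 to 54.8) with control IgG and at 103 CPM (95.1 to 112) with the antibody (log2 ratio 1.02, 0.86 to 1.18). The decoy receptor gene was therefore at the edge of the 2-fold limit, and its ratio was 0.57 when the mix of myeloid subtypes was held at that of the control IgG library.

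Osm, a gp130 ligand made mainly by activated myeloid cells, had 1123 UMIs (75.7 CPM, 71.3 to 80.2) with control IgG and 972 UMIs (176 CPM, 165 to 187) with the antibody. The log2 ratio was 1.22 (1.09 to 1.34), and the share of thinned myeloid cells with an Osm UMI was 12.0% (10.6 to 13.6) with control IgG and 23.7% (20.7 to 26.9) with the antibody. Before thinning the shares were 30.3% and 41.1%, and in thinned lymphoid cells 0.900% and 0.908%. Il6, the founding member of its family, had few UMIs, 95 in 59 myeloid cells (6.40 CPM, 5.18 to 7.83) of the control IgG library and 84 UMIs in 37 cells (15.2 CPM, 12.1 to 18.8) of the antibody library. Its log2 ratio was 1.25 (0.81 to 1.69). The shares of thinned myeloid cells with an Il6 UMI were 1.59% (1.08 to 2.27) with control IgG and 2.20% (1.29 to 3.50) with the antibody, intervals that overlapped.

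Il1a, Il18, Il1r1 and Lif in myeloid cells had ratios whose intervals included 0. Il1a, the interleukin 1 form that is active without cleavage, was at 10.8 CPM with control IgG and 13.4 CPM with the antibody (log2 ratio 0.31, -0.11 to 0.72). Il18 was at 29.9 and 26.6 CPM (-0.17, -0.45 to 0.10), the receptor gene Il1r1 at 4.92 and 4.34 CPM and Lif at 1.75 and 1.99 CPM. Il33, an alarmin of barrier and stromal cells, was lower with the antibody, but on 31 UMIs in 31 cells against 4 UMIs in 4 cells (2.09 and 0.723 CPM). In free RNA, the profile of droplets under 100 UMIs, Il33 was at 30.0 CPM with control IgG and 78.7 CPM with the antibody. With all haemoglobin UMIs taken as free RNA, 2.57% and 3.38% of the UMIs in myeloid cells were estimated to be free RNA. That estimate rests on haemoglobin levels of 0.741 and 2.53 CPM in myeloid cells and has no interval.

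**Figure D2:**
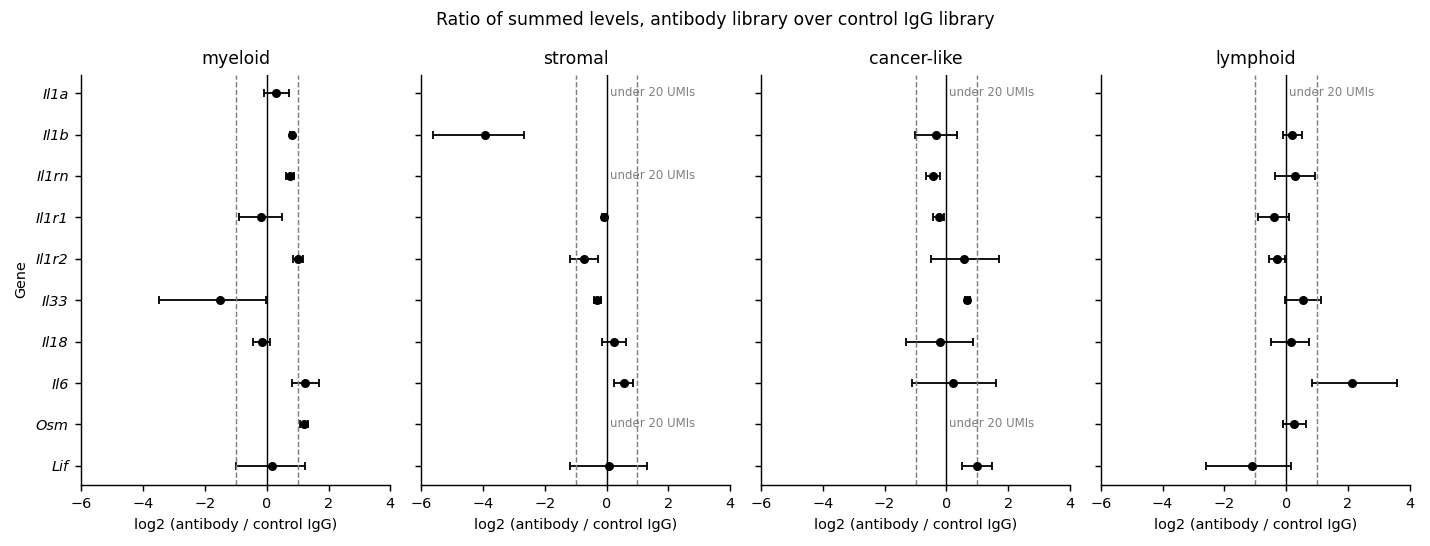
Log2 ratio of CPM, antibody over control IgG, for each gene (vertical axis) in each of the 4 classes; points are ratios of 1 library to 1 library, bars 95% intervals for counting error, dashed lines 2-fold, and genes under 20 UMIs are not drawn. In myeloid cells Il1b, Il1rn, Il1r2, Il6 and Osm lie above 0 with intervals that exclude it, between 0.76 and 1.25.

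The mix of myeloid cells differed between the libraries, so the members were also read within subtypes gated by markers. C1q macrophages numbered 905 with control IgG and 223 with the antibody, monocytes 535 and 313, conventional dendritic cells 115 and 80, mature dendritic cells 50 and 40, and type 1 dendritic cells 29 and 27. Il1b was higher with the antibody in each of these 5 subtypes: 381 and 648 CPM in C1q macrophages, 739 and 1111 CPM in monocytes, 555 and 988 CPM in conventional dendritic cells, 324 and 1205 CPM in mature dendritic cells and 155 and 323 CPM in type 1 dendritic cells. The largest of these ratios was that of mature dendritic cells (log2 1.90, 1.61 to 2.18), and all 5 intervals excluded 0. In neutrophil-gated cells, of which 13 and 9 were kept, Il1b went the other way, at 3222 CPM on 140 UMIs with control IgG and 1388 CPM on 95 UMIs with the antibody.

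Il1rn was higher with the antibody in C1q macrophages (125 and 260 CPM; log2 ratio 1.06, 0.89 to 1.24), in monocytes (98.9 and 186 CPM; 0.91, 0.70 to 1.13) and in mature dendritic cells (122 and 277 CPM; 1.18, 0.68 to 1.70). Conventional dendritic cells, with 12.8 and 44.1 CPM on 12 and 29 UMIs, had lower levels of the antagonist gene than these in each library. Osm was higher with the antibody in C1q macrophages (67.0 and 157 CPM), monocytes (126 and 304 CPM) and conventional dendritic cells (37.4 and 98.8 CPM), with log2 ratios of 1.23, 1.27 and 1.40. Its level was highest in monocytes in both libraries among these 3 subtypes.

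Outside the neutrophil-gated cells (1404 and 541 CPM on 61 and 37 UMIs), Il1r2 was highest in conventional dendritic cells, at 240 CPM with control IgG and 350 CPM with the antibody, and lower in monocytes (61.6 and 91.3 CPM) and C1q macrophages (15.7 and 34.8 CPM). In all 3 subtypes it was higher with the antibody, with log2 ratios of 0.54, 0.57 and 1.15 and intervals that excluded 0. Il6 separated by subtype: C1q macrophages had 54 UMIs in 27 of 905 cells (7.22 CPM) with control IgG and 55 UMIs in 22 of 223 cells (37.5 CPM) with the antibody (log2 ratio 2.38, 1.81 to 2.94), whereas monocytes had 18 and 19 UMIs (5.13 and 9.86 CPM; 0.94, -0.07 to 1.96). Il1a likewise was higher with the antibody in C1q macrophages (12.0 and 32.7 CPM; 1.44, 0.91 to 1.96), while in monocytes it was at 13.4 and 11.4 CPM. With the mix of subtypes held at that of the control IgG library the myeloid log2 ratios were 0.70 for Il1b, 0.99 for Il1rn, 1.20 for Osm, 1.83 for Il6 and 0.85 for Il1a.

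**Figure D3:**
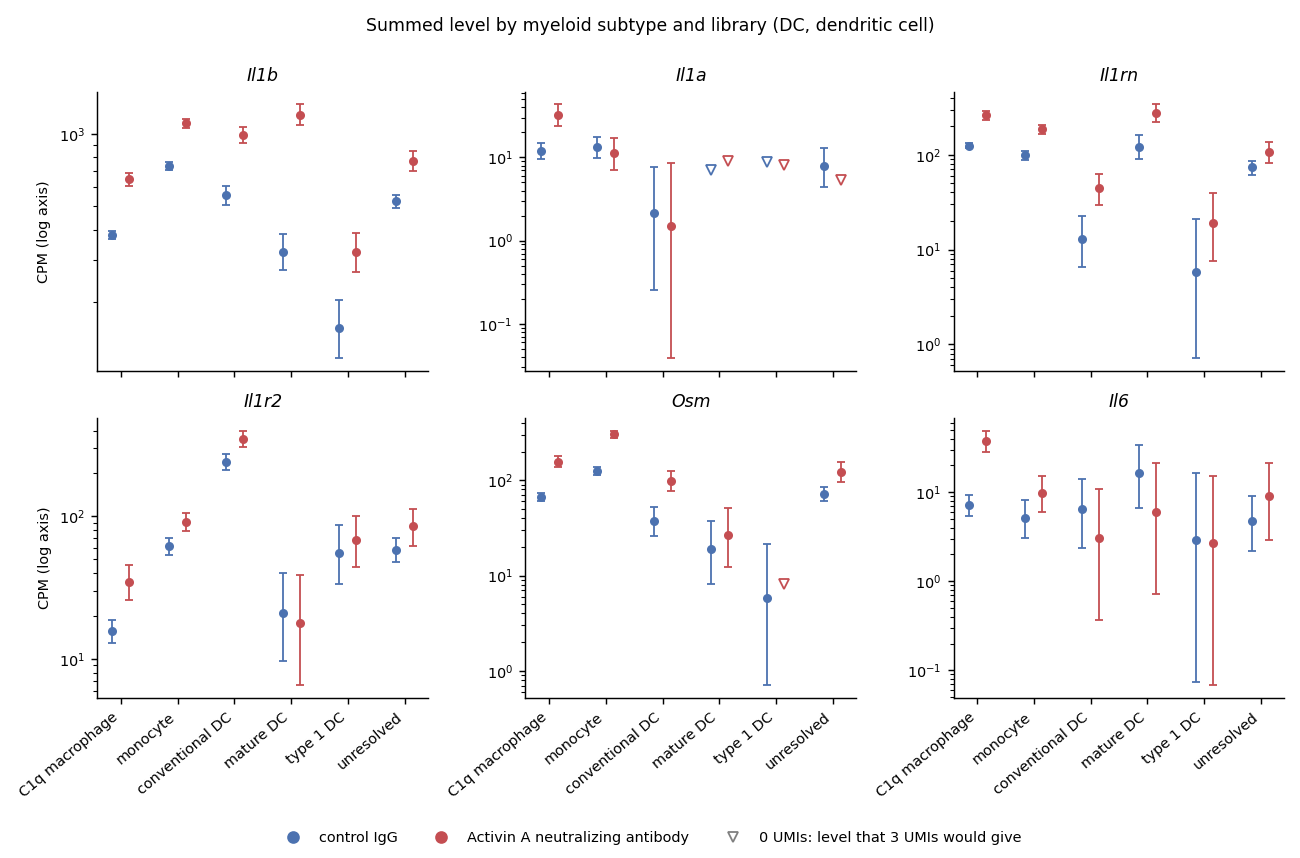
CPM (log axis) of Il1b, Il1a, Il1rn, Il1r2, Osm and Il6 in 5 gated myeloid subtypes and in myeloid cells of no single subtype, with control IgG in blue and the antibody in red; bars are exact Poisson 95% intervals and open triangles mark 0 UMIs at the level 3 UMIs would give. Il1b lies higher with the antibody in all 6 groups, for example at 381 and 648 CPM in C1q macrophages and at 324 and 1205 CPM in mature dendritic cells.

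Summed neutrophil markers (S100a8, S100a9, Csf3r, Retnlg and Ngp, none at 0) stood at 264 CPM in myeloid cells with control IgG and 7606 CPM with the antibody, and 61.8% and 37.1% of these UMIs were in neutrophil-gated cells. Without the neutrophil-gated cells the log2 ratios were 0.83 for Il1b, 0.76 for Il1rn, 1.06 for Il1r2, 1.26 for Il6 and 1.21 for Osm, and 18518 of the remaining 26457 marker UMIs with the antibody were in 3 cells. The C1q macrophage markers went the other way and stood at 6686 CPM with control IgG and 2627 CPM with the antibody.

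Among myeloid cells thinned to 2000 UMIs, those with an Il1b UMI also carried the antagonist, the decoy receptor and Osm more often than those without. With control IgG, Il1rn was found in 20.4% of 637 cells with Il1b (17.3 to 23.8) and in 12.8% of 1247 cells without it (10.9 to 14.7). With the antibody it was found in 34.2% of 351 cells with Il1b (29.2 to 39.4) and in 13.1% of 421 without (10.0 to 16.7). Il1rn was thus at a like share in both libraries among cells without Il1b, and at a higher share with the antibody among cells with Il1b. Osm was found in 15.9% of cells with Il1b (13.1 to 18.9) and 10.1% of cells without (8.49 to 11.9) with control IgG, and in 35.0% (30.1 to 40.3) and 14.3% (11.1 to 18.0) with the antibody. Il1r2 was found in 9.58% of cells with Il1b and 3.93% of cells without with control IgG, and in 17.4% and 4.28% with the antibody. Il18 did not follow this order in both libraries, with 7.54% and 5.53% under control IgG and 4.84% and 6.41% under the antibody, and the intervals overlapped in each. The subtypes of cells with and without Il1b were not held equal in these shares.

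**Figure D4:**
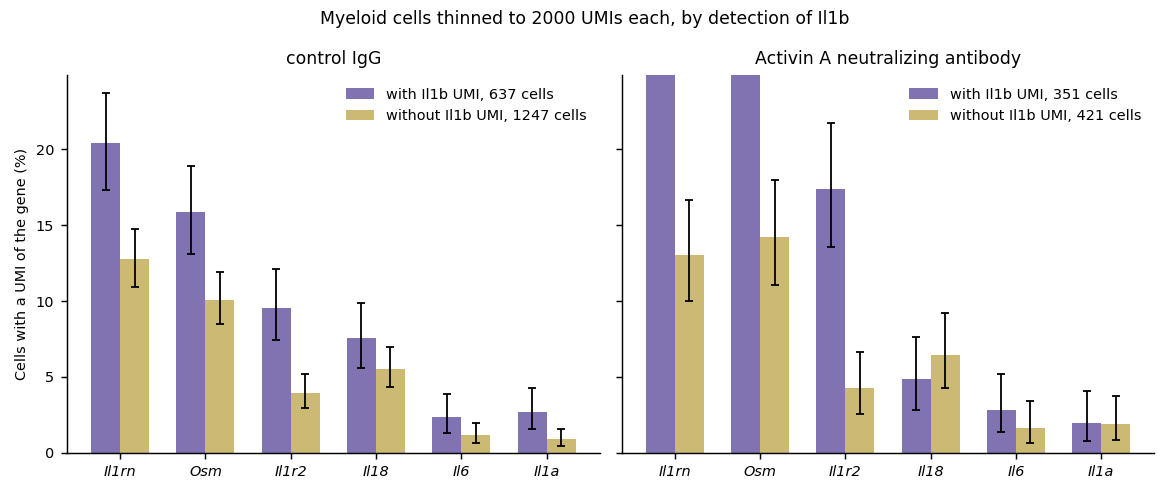
Share of thinned myeloid cells with a UMI of each gene (vertical axis, percent), for cells with and without an Il1b UMI in each library; bars start at 0 and lines are exact Clopper-Pearson 95% intervals. In cells with Il1b, Il1rn was found in 20.4% with control IgG and 34.2% with the antibody, and Osm in 15.9% and 35.0%.

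In stromal cells the receptor gene Il1r1 and the alarmin gene Il33 were the members with most UMIs, and Il6 was higher in the antibody library. Of the 7 members with at least 20 UMIs here, 0 were at least 2-fold higher and 1, Il1b, at least 2-fold lower, against 5.47% of 12288 genes past 2-fold in either direction. The median log2 ratio was -0.07 over the 7 members and 0.03 over all these genes.

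Il1r1 was at 506 CPM (485 to 527) with control IgG and 480 CPM (458 to 503) with the antibody (log2 ratio -0.07, -0.17 to 0.02). Before thinning, the levels of the receptor gene were not separable by counting error. Of thinned cells, 40.6% of 229 (34.2 to 47.3) had an Il1r1 UMI with control IgG and 24.8% of 246 (19.5 to 30.7) with the antibody. Before thinning the shares were 74.5% and 53.6% at medians of 15777 and 10276 UMIs per cell, and in thinned lymphoid cells 0.766% and 0.430%. In the antibody library the 3 cells with most Il1r1 held 299 of 1810 UMIs, and in the control IgG library 236 of 2171. In a separate draw with every cell thinned, Il1r1 had 191 UMIs with control IgG and 134 with the antibody. The log2 ratio was then -0.61, in the direction of the shares. Over the 12 settings that gave a ratio it ran from -0.61 to 0.09, with 10 negative and 2 positive. The ratio thus depended on the processing, and no order is read from the shares or the levels of the whole class. Most stromal cells were gated as fibroblasts (194 and 224), in which Il1r1 was at 563 and 498 CPM (-0.18, -0.28 to -0.08), and mesothelial cells (14 and 15) had 175 and 322 CPM on 61 and 163 UMIs.

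Il33 in stromal cells was at 348 CPM (330 to 366) with control IgG and 282 CPM (266 to 300) with the antibody (log2 ratio -0.30, -0.42 to -0.19). Within fibroblasts alone it was at 335 and 326 CPM, a log2 ratio of -0.04 (-0.17 to 0.09). Summed myofibroblast markers, none of them at 0, stood at 2698 CPM in the stromal class with control IgG and 1396 CPM with the antibody, and fibroblast markers at 30677 and 32983 CPM. Their part in the stromal differences of Il33, Il6, Il1r2 and the related genes was not tested. In the stromal cells of no single subtype, 21 with control IgG and 7 with the antibody, it was at 519 and 155 CPM.

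Il6 in stromal cells had 169 UMIs in 56 cells (39.4 CPM, 33.6 to 45.8) with control IgG and 217 UMIs in 62 cells (57.6 CPM, 50.2 to 65.8) with the antibody. Its log2 ratio was 0.55 (0.25 to 0.85), and in fibroblasts 0.57 (0.26 to 0.88). By summed level Il6 was thus higher with the antibody in both classes in which it had most UMIs, stromal and myeloid. The share of stromal cells with an Il6 UMI was 24.2% with control IgG and 25.0% with the antibody, and 3 cells held 33 and 69 of the UMIs. In thinned stromal cells the shares were 3.49% (1.52 to 6.77) and 6.91% (4.08 to 10.8), intervals that overlapped. The decoy receptor gene Il1r2 was at 29.1 CPM (24.2 to 34.7) with control IgG and 17.5 CPM (13.5 to 22.3) with the antibody in stromal cells, a log2 ratio of -0.73 (-1.19 to -0.29), and -0.71 in fibroblasts. With every cell thinned to 2000 UMIs it had 6 and 7 UMIs and a ratio of 0.12. In a separate draw of thinned cells 6.11% (3.38 to 10.0) and 2.85% (1.15 to 5.77) had an Il1r2 UMI, so the direction differed between draws. Il18, which encodes a cytokine matured by caspase 1, was at 24.9 and 29.5 CPM (0.24, -0.16 to 0.64). Lif had 13 and 12 UMIs, and Il1rn (10 and 1), Il1a (2 and 0) and Osm (2 and 0) were under 20 UMIs in stromal cells.

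Il1b in stromal cells had 88 UMIs with control IgG and 5 with the antibody, 20.5 and 1.33 CPM. Of the 88 UMIs, 62 were in 3 cells, and 18 of 231 cells had any; the log2 ratio was -3.95 (-5.61 to -2.67), and -3.52 without the 3 cells of each library with most Il1b. Conventional dendritic cell markers in the stromal class were at 300 CPM with control IgG and 106 CPM with the antibody, with 1 and 2 at 0 UMIs. Monocyte markers were at 44.7 and 9.55 CPM and C1q macrophage markers at 32.4 and 9.02 CPM. Mature dendritic cell markers were at 155 and 104 CPM (0 and 2 at 0 UMIs). Type 1 dendritic cell markers were at 74.5 and 73.5 CPM (1 and 2 at 0 UMIs). Neutrophil markers were at 58.9 and 5.04 CPM, with 2 and 1 of them at 0 UMIs. Plasmacytoid dendritic cell markers went the other way, at 225 and 275 CPM, with 1 and 2 of them at 0 UMIs. That list stood at 392 and 363 CPM in cancer-like cells, so it is not particular to plasmacytoid dendritic cells. The part of these cells in the Il1b difference was not tested.

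Cancer-like cells, named only from the gate on Dlk1, Hmga2, Cdkn2a, Lgals7 and Mid1, had higher levels of Il33 and Lif in the antibody library. None of the 8 members with at least 20 UMIs was past 2-fold in either direction, where 4.9% of 13963 genes were, and the median log2 ratio was 0.00 over the members and -0.05 over all genes. Il33 was at 148 CPM (143 to 154) with control IgG and 237 CPM (231 to 244) with the antibody (log2 ratio 0.68, 0.61 to 0.75). The share of thinned cells with an Il33 UMI was 17.2% of 331 cells (13.3 to 21.7) with control IgG and 23.3% of 348 cells (18.9 to 28.1) with the antibody, intervals that overlapped. Before thinning the shares were 51.2% and 54.3% at medians of 58010 and 55359 UMIs per cell, and in thinned lymphoid cells 0.364% and 0.478% had one.

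Lif, a gp130 ligand known for keeping embryonic stem cells undifferentiated, had 55 UMIs in 30 of 332 cancer-like cells (2.91 CPM, 2.20 to 3.79) with control IgG and 112 UMIs in 71 of 352 cells (5.78 CPM, 4.76 to 6.95) with the antibody. The log2 ratio was 0.99 (0.51 to 1.48), just under the 2-fold limit, and over the alternatives it ran from 0.56, with 2 of 5 markers, to 2.93, with every cell thinned to 2000 UMIs, where 1 and 8 UMIs were left. Without the 3 cells of each library with most Lif it was 1.65. Before thinning 9.04% of cells (6.18 to 12.6) with control IgG and 20.2% (16.1 to 24.7) with the antibody had a Lif UMI. In a separate draw of thinned cells 3 cells of each library had a Lif UMI (0.906% and 0.862%). That is too few to read a difference in the share at this depth. Il1rn was lower with the antibody in this class (19.7 and 14.7 CPM, log2 ratio -0.43, -0.66 to -0.20), and so was Il1r1 (28.6 and 24.1 CPM, -0.25, -0.43 to -0.06). The ratio of Il1r1 was 0.04 when cells with markers of several classes were assigned to the class with most of them. With thinned cells it was 0.48 on 17 and 25 UMIs. In the separate draw 6.65% of 331 cells (4.21 to 9.89) and 4.89% of 348 (2.87 to 7.71) had an Il1r1 UMI, intervals that overlapped. The antagonist gene therefore had opposite signs in myeloid and cancer-like cells, except with every cell thinned to 2000 UMIs, where its ratio in cancer-like cells was 0.58 on 7 and 11 UMIs. Of the remaining members, Il1b (43 and 35 UMIs), Il1r2 (13 and 20), Il18 (17 and 15) and Il6 (10 and 12) had intervals that included 0, Osm had 6 and 5 UMIs, and Il1a had 0 UMIs in both libraries, which allows up to 0.159 and 0.155 CPM (3 UMIs in each library).

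Lymphoid cells held few UMIs of the members, with no summed level of the class above 10.5 CPM. Of 9 members with at least 20 UMIs, 1 was at least 2-fold higher with the antibody, Il6, and 1 at least 2-fold lower, Lif, against 3.32% of 14393 genes past 2-fold in either direction. Il6 had 7 UMIs in 7 cells with control IgG and 21 UMIs in 7 cells with the antibody, of which 17 were in 3 cells, and its log2 ratio of 2.12 was 0.54 without the 3 cells of each library with most. Lif had 22 and 7 UMIs, and the interval of its log2 ratio (-1.12, -2.59 to 0.16) included 0. Il1r2 was at 10.5 CPM (9.44 to 11.7) and 8.63 CPM (7.47 to 9.90), nearly all of it in T cells, where it had 341 and 197 UMIs. The other members of lymphoid cells were Il1b (6.18 and 7.08 CPM), Osm (4.11 and 4.94 CPM), Il1r1 (3.05 and 2.32 CPM), Il18 (1.60 and 1.76 CPM), Il33 (1.57 and 2.27 CPM) and Il1rn (1.33 and 1.63 CPM), each with an interval of the ratio that included 0, and Il1a with 1 and 3 UMIs. Il1r1, which marks interleukin 17 producing gamma delta T cells among lymphocytes, had 11 UMIs in 6 of 11 gamma delta cells with control IgG and 8 UMIs in 3 of 6 with the antibody, 376 CPM (187 to 672) and 532 CPM (230 to 1048), against 2.14 and 1.42 CPM in T-gated cells. More of its UMIs lay elsewhere, 67 and 30 in T-gated cells and 21 and 15 (92.2 and 74.8 CPM) in lymphoid cells of no single subtype.

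A list of 30 other genes of both pathways was read beside the members: receptors and regulators, the interleukin 1 processing machinery, the interleukin 6 family receptors, other ligands, and signalling and inducible genes. In myeloid cells 27 of them had at least 20 UMIs, with 3 at least 2-fold higher with the antibody (4.55% of all genes were) and 0 lower (7.25% of all genes were past 2-fold either way), and a median log2 ratio of 0.19. In stromal cells 1 of 26 was higher and 3 were lower, against 5.47% of all genes in either direction (median -0.15). The higher gene was Il1rl1 and the lower ones Ptgs2, Cxcl2 and Ctf1. Ctf1 had 23 and 10 UMIs and a log2 ratio of -1.01, with an interval (-2.25 to 0.11) that included 0. In cancer-like cells 0 of 26 were higher and 1 lower, against 4.9% (median 0.02), and in lymphoid cells 0 of 25 passed in either direction, against 3.32% (median 0.11).

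The 3 higher genes in myeloid cells were Lcn2, Ptgs2 and Il1f9. Ptgs2, which encodes the inducible cyclooxygenase, was at 68.2 and 152 CPM (log2 ratio 1.16, 1.02 to 1.29). Lcn2, a neutrophil granule protein gene, had 153 UMIs in 32 cells with control IgG, 96 of them in 4 cells. With the antibody it had 2156 UMIs in 33 cells, 1090 of them in 4 cells. Its log2 ratio was 5.24, and 5.67 without the 4 cells of each library with most Lcn2. Il1f9 had 11 and 12 UMIs. Among genes within 2-fold, the neutrophil chemoattractant gene Cxcl2 was at 595 and 960 CPM (0.69, 0.64 to 0.74), the inflammasome sensor gene Nlrp3 at 78.7 and 108 CPM (0.46, 0.31 to 0.60), and the receptor accessory gene Il1rap at 27.7 and 40.7 CPM (0.55, 0.31 to 0.79). Casp1, which cleaves the interleukin 1 beta and interleukin 18 precursors, was at 59.1 and 55.3 CPM (-0.10, -0.29 to 0.09). Il18bp, the secreted interleukin 18 trap, was lower at 72.4 and 44.8 CPM (-0.69, -0.90 to -0.49). Socs3 was at 286 and 299 CPM (0.07, -0.02 to 0.15) and Stat3 at 324 and 382 CPM (0.24, 0.16 to 0.31). In stromal, cancer-like and lymphoid cells the log2 ratios of Socs3 were 0.37, -0.59 and 0.32, and those of Stat3 0.24, 0.12 and 0.69.

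The 5 receptor genes of the interleukin 6 family in stromal cells had log2 ratios between -0.19 and 0.45. Il6ra, the interleukin 6 receptor gene, was at 21.0 and 28.7 CPM (0.45, 0.03 to 0.87), Il6st at 154 and 179 CPM (0.22, 0.06 to 0.38), Osmr, the oncostatin M receptor gene, at 132 and 133 CPM (0.01, -0.16 to 0.19), Lifr at 44.5 and 39.5 CPM (-0.17, -0.49 to 0.15) and Il11ra1 at 201 and 176 CPM (-0.19, -0.34 to -0.04). Osmr in myeloid cells had 4 and 2 UMIs. Osm was thus counted in myeloid cells and Osmr in stromal cells (and at 22.9 and 25.5 CPM in cancer-like cells). In stromal cells Ptgs2 (73.8 and 34.5 CPM; -1.10, -1.40 to -0.80) was lower with the antibody, whereas Nfkbiz (74.5 and 123 CPM; 0.73) and Cxcl1 (66.8 and 116 CPM; 0.80, 0.58 to 1.02) were higher. Without the 4 cells of each library with most UMIs of the gene these ratios were -1.20, 0.69 and 0.46. Cxcl2 was at 29.3 and 10.9 CPM (-1.43), but 4 cells held 97 of its 126 UMIs in the control IgG library and 4 cells held 22 of its 41 UMIs in the antibody library. Without these cells it was at 6.99 and 5.27 CPM (-0.41, -1.33 to 0.47). Il1rl1, the interleukin 33 receptor gene, had 82 UMIs with control IgG and 231 with the antibody in stromal cells, 161 of the latter in 4 cells, and its log2 ratio without the 4 cells of each library was 0.94. Saa3, an acute phase gene, was lower in myeloid (4245 and 2947 CPM), stromal (2420 and 1658 CPM) and cancer-like cells (16.6 and 5.47 CPM, log2 ratio -1.60).

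**Figure D5:**
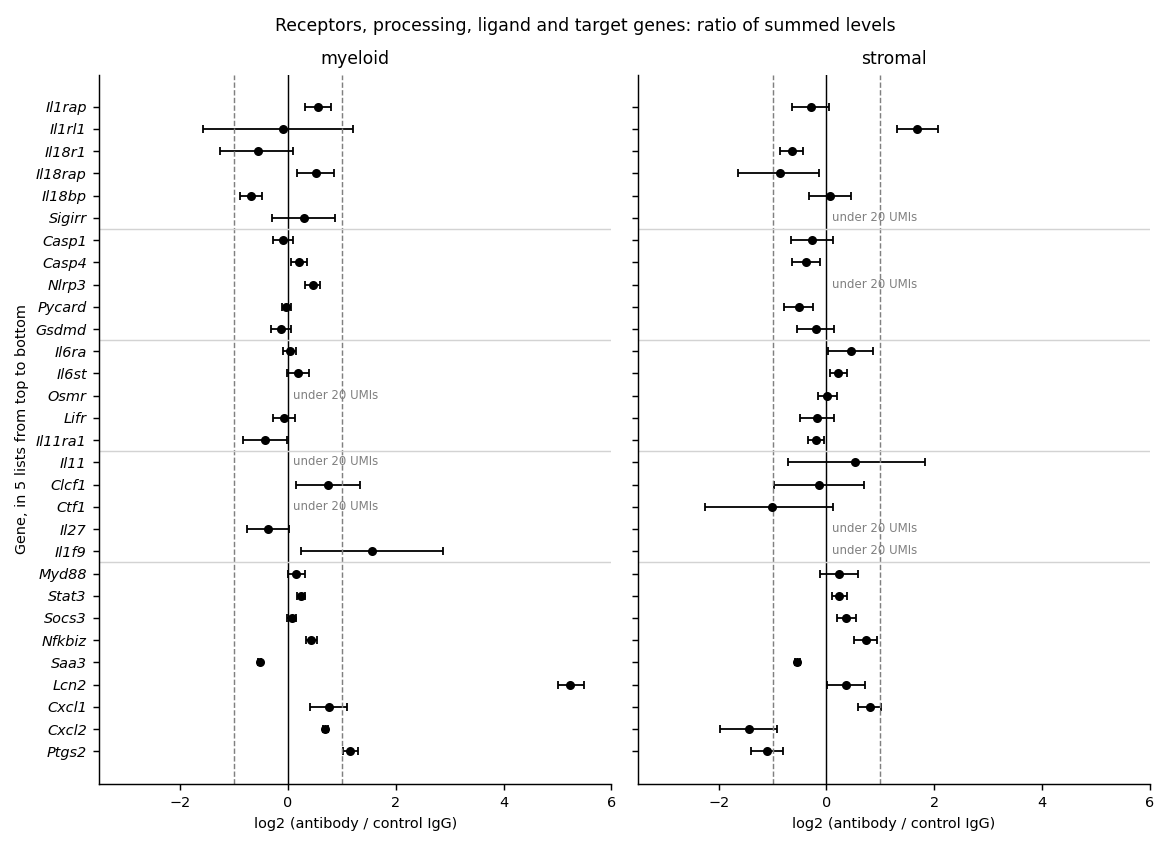
Log2 ratio of CPM, antibody over control IgG, for 30 receptor, processing, ligand, signalling and target genes (vertical axis) in myeloid and stromal cells; points are ratios of 1 library to 1 library, bars 95% intervals for counting error, and dashed lines 2-fold. Ptgs2 lies at 1.16 in myeloid cells and -1.10 in stromal cells, and Osmr at 0.01 in stromal cells.

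The genes most like each member were sought over 17 sums of cells (type by library, at least 50 cells each) by Pearson's r of log2(CPM + 1) among 13075 genes. These sums differ mainly by cell type and share libraries, so r is a description. Il1b was most like Card9 (0.98), Mcemp1 (0.98) and Gm40645 (0.98), and Osm most like Rabgef1 (0.98), Mapkapk2 (0.96) and Mcl1 (0.95). Il1r1 was most like Cd276 (0.97), Ttc9 (0.96) and Kdelr1 (0.95), and Il33 most like Greb1l, Cdh2 and Yap1 (0.97 each). The closest genes to Il1a were Tcirg1 (0.98), A530064D06Rik (0.98) and the macrophage gene Adgre1 (0.97). For Il1rn (Upp1, Hilpda and Pi4k2a), Il1r2 (Tiam1, Lsr and Ppp1r18os), Il18 (Arhgap24, B3gnt8 and Cd36), Il6 (Rnf144b, Dpp7 and Reps2) and Lif (Sumo3, Prdx1 and Fam110b) the highest r was between 0.90 and 0.94.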

How the data were processed

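Raw UMI counts per gene and barcode were analysed, as deposited by the authors without a cell filter. The file headers name Cell Ranger version 4, and the submitters' processing notes name Cell Ranger 7.0.1 and the build mm10. Positions were taken from GENCODE M21 (GRCm38), in which 32158 of 32285 identifiers (99.6%) matched. The libraries held 98174850 (control IgG) and 74117462 (antibody) UMIs, so a gene without a UMI may still be expressed.

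A marker was on at 1 or more UMIs per 10000 in a cell; cells with markers of several classes (456 and 208) or of none (483 and 454) were left out of the classes. Doublets were kept, since Scrublet called 0 in both libraries and was taken not to have worked. CPM and shares have exact 95% intervals, and log2 ratios a conditional binomial interval. A gene was past the fold at 2-fold with at least 20 UMIs over both libraries. All members and the related list are named, and the 3 most alike genes of members with at least 200 UMIs in those sums. The members and lists were chosen with earlier results of these data known. The code for ratios and intervals was run on simulated Poisson counts, the model that the intervals assume. Those counts lack the gathering of UMIs in few cells, so the run cannot show how the intervals hold for these data. Python 3.11.15, scipy 1.17.1, scanpy 1.11.5 and leidenalg 0.10.2 were used. The alternatives changed the marker limit, mixed cells, clusters in place of the gate, filters, free RNA, scaling, thinning and the UMI minimum, and 4 more were added after seeing the data.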

Additional observations from a re-analysis of the deposited data

Results flagged for a closer look

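Members whose ratio went in opposite directions in different classes, with intervals of counting error that excluded 0, were Il1b (log2 ratio 0.82 in myeloid cells and -3.95 in stromal cells), Il1r2 (1.02 in myeloid, -0.73 in stromal and -0.28 in lymphoid cells), Il1rn (0.76 in myeloid and -0.43 in cancer-like cells) and Il33 (-1.53 in myeloid, -0.30 in stromal and 0.68 in cancer-like cells). In a random draw with every cell thinned to 2000 UMIs 2 of these signs turned: Il1r2 in stromal cells was at 0.12 on 6 and 7 UMIs, and Il1rn in cancer-like cells at 0.58 on 7 and 11 UMIs. In a separate draw the shares of cells were 6.11% and 2.85% for Il1r2 and 2.11% and 2.87% for Il1rn. The turn of Il1r2 was thus not seen in both draws. Il33 in myeloid cells rested on 31 and 4 UMIs, at levels below those of Il33 in free RNA (30.0 and 78.7 CPM). Within fibroblasts the log2 ratio of Il33 was -0.04 (-0.17 to 0.09), so its stromal direction did not hold there. Opposite directions are therefore poorly based for Il33. The differences between classes were not tested, since each group is 1 library.

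Cells outside the 4 classes or under the limit on genes were read too. There 4 member levels with at least 20 UMIs over both libraries were at least 2-fold higher with the antibody, with intervals that excluded 0. Osm in cells with markers of several classes was at 15.8 CPM with control IgG and 38.6 CPM with the antibody (log2 ratio 1.29). Lif in the same cells, under that minimum with 4 and 14 UMIs, was higher too (2.70, 1.03 to 4.76). Il6 in mast or basophil cells had 20 UMIs in 6 of 7 cells with control IgG, 17 of them in 3 cells, and 35 UMIs in 3 of 4 cells with the antibody (2.45). In neutrophil-gated cells with 500 to 999 genes, under the limit on genes, Osm was at 276 CPM on 49 UMIs and 1015 CPM on 84 UMIs (1.88). Il1b in other myeloid cells with 500 to 999 genes had 12 and 20 UMIs (1.87), and Il1rn in the same cells, with 10 and 11 UMIs (1.27, -0.10 to 2.67), was past 2-fold with an interval that included 0. Levels at least 2-fold lower with the antibody were those of ungated cells with 500 to 999 genes: Il1b at 1811 and 699 CPM (-1.37), Il1rn at 311 and 99.9 CPM (-1.64) and Il1r2 at 720 and 128 CPM (-2.49), with intervals that excluded 0, and Il1a with 14 and 8 UMIs (-1.01, -2.47 to 0.35).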

How the results depend on the processing

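No paired analysis was possible because only 1 library stands for each group, and so no replicate could be left out. Of 34 log2 ratios of members, 18 had one sign under all the alternatives that gave a ratio, and no ratio past 2-fold changed sign among these. Il6 in lymphoid cells, past 2-fold higher with the antibody, had 4 UMIs with control IgG and 0 with the antibody after thinning. In a separate draw of thinned cells 2 of 5220 and 2 of 4184 had an Il6 UMI. The opposite direction of the first draw, on 4 and 0 UMIs, gave no ratio and is not in these counts. In myeloid cells the ratios of Il6 (1.10 to 1.83) and Osm (1.16 to 1.39) stayed past 2-fold, that of Il1r2 ran from 0.57 to 1.47 and that of Il33 from -3.38 to -0.49. The class of highest CPM was the same for all 10 members, except Il18 with 2 of 5 markers or with clusters (9 of 10). The number of myeloid members past 2-fold was 2, against 4, with 2 of 5 markers and with clusters in place of the gate. In stromal cells it was 0 with thinning and 2 at a minimum of 10 UMIs, against 1. In cancer-like cells, against 0, it was 1 with 4 of 5 markers, mixed cells assigned, clusters, 5% mitochondrial UMIs or scaling by the median ratio, and 2 with the mean over cells or without the 3 cells with most UMIs. In lymphoid cells, against 2, it was 1 with 2 of 5 markers, mixed cells assigned, clusters or without those 3 cells, and 0 with the mean over cells, thinning or a minimum of 50 UMIs. Of all genes, 917 myeloid, 672 stromal, 684 cancer-like and 478 lymphoid were past 2-fold; these were 494, 285, 263 and 181 at a minimum of 50 UMIs and 1403, 1131, 1187 and 974 at a minimum of 10, where by construction other numbers of genes were tested. Thinning gave 533 in myeloid and 316 in cancer-like cells, and it too changed which genes reached the minimum of 20 UMIs. After it Il1b in stromal cells had 10 and 2 UMIs. In lymphoid cells Lif had 5 and 1 and Il6 4 and 0. All 3 were under the minimum over both libraries and so could not be counted past 2-fold. The cause of the other shifts was not tested. Members with few UMIs in a class (Il33 in myeloid, Il1b in stromal, Il6 and Lif in lymphoid cells) are limited by depth.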

Other observations

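Most neutrophil-gated cells lay under the limit of 1000 genes. In the range of 500 to 999 genes there were 139 with control IgG and 57 with the antibody, of 572 and 511 cells in that range, with medians of 1238 and 1415 UMIs per cell. Il1b was at 5117 CPM on 907 UMIs with control IgG and 9846 CPM on 815 UMIs with the antibody (log2 ratio 0.94), above the 491 and 865 CPM of the kept myeloid cells. The decoy receptor gene Il1r2 was at 2364 and 2634 CPM (0.16, interval from -0.09), and Il1rn at 1078 and 785 CPM (-0.46). Neutrophil-gated cells of this range thus had ligand and decoy receptor levels above those of the kept myeloid class in both libraries, and the filter on genes left them out.

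In the kept cells without markers of any class, Il1b was at 473 CPM with control IgG and 376 CPM with the antibody, and Il1r2 at 144 and 131 CPM. Il1rn in the same cells was at 34.2 and 67.4 CPM (log2 ratio 0.98).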
